A study of Homo sapiens with 24 samples.

Results

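ZFP36, ZFP36L1 and ZFP36L2 encode the human CCCH zinc-finger proteins that bind AU-rich elements, short sequences built around ATTTA in the 3′ untranslated region (3′UTR) of unstable messages. Once bound, these proteins recruit the CCR4-NOT deadenylase, and the message loses its poly(A) tail and is degraded. ZFP36, also called tristetraprolin, is best known for limiting TNF and other inflammatory messages, its activity is held back by the p38-MK2 kinase pathway, and it has been described as a glucocorticoid-induced gene. ZFP36L1 and ZFP36L2 share the fingers and act in development and in blood cells among other tissues. The 3 genes were taken by symbol as 3 rows of a table of 61533 genes, and all 3 passed the filter on low counts, with 23651 genes tested in all.

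The values are 4sU-seq libraries from U2OS, a human osteosarcoma cell line with little endogenous glucocorticoid receptor (GR). Cells were given 4-thiouridine (4sU) at 200 µM for the last 1 h before harvest, and RNA that had taken up this nucleoside was purified and sequenced, so each library represents RNA made in that window and still present at harvest. The question of the study was how loss of RNA binding by GR alters the transcriptional response to dexamethasone, a synthetic glucocorticoid. Each line carried a GR-HaloTag transgene (a tag that binds fluorescent dyes) driven by the CMV promoter, inserted with PiggyBac, selected with puromycin and sorted on the tag. The wt line carried unmutated GR. SoF (separation of function) carried K492A, which reduces RNA binding strongly and DNA binding to a lesser degree. Ctrl carried R470A, the control for that loss of DNA binding, which has reduced DNA binding and keeps RNA binding. These affinities were measured in vitro on a part of the protein. Cells of each line were exposed to dexamethasone at 100 nM for 1 h, 2 h or 3 h, or to 0.01% ethanol (0 h), with 2 libraries in each of the 12 groups. Each line is a single sorted pool, so the construct cannot be told apart from the pool. The time spent in ethanol is not given in the sources used here, and every dish had its medium replaced, so time since the change of medium cannot be told apart from time in dexamethasone.

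The sequences behind the family name are shown first. The lines below give the coding DNA of the first of the 2 CCCH fingers of each gene, read 5′ to 3′ on the coding strand from the hg38 genome, with the 3 cysteine codons and the histidine codon that hold the zinc ion in capitals. They lie at chr19:39408043-39408102 (plus strand), chr14:68790133-68790192 (minus strand) and chr2:43225270-43225329 (minus strand).
ZFP36: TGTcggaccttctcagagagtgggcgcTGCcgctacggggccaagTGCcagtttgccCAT
ZFP36L1: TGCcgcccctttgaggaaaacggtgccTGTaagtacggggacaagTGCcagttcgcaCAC
ZFP36L2: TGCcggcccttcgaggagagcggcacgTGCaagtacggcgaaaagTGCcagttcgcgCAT
Over these 60 bases ZFP36L1 and ZFP36L2 were identical at 48 (80.0%), ZFP36 and ZFP36L2 at 42 (70.0%), and ZFP36 and ZFP36L1 at 39 (65.0%). The longest run of bases shared by any pair of the family's transcripts was 21 to 23 bases.

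The 3 genes also carry the element that their own proteins recognise. Each line gives 30 bases of the 3′UTR holding 2 copies of ATTTA, which are in capitals, at chr19:39409184-39409213 (plus), chr14:68788347-68788376 (minus) and chr2:43223459-43223488 (minus).
ZFP36: gggccctttATTTAtgacgactttATTTAt
ZFP36L1: agcttATTTAacttatcaaaacgtATTTAt
ZFP36L2: ctcaatatgaaaactATTTAacttATTTAt
The 3′UTR of ZFP36 (708 bases) held 5 copies of ATTTA, that of ZFP36L1 (1871 bases) held 8, and that of ZFP36L2 (1917 bases) held 5. Of 19527 protein-coding genes, 28.8% had at least 5 and 17.6% at least 8. Each of the 3 genes held 3 copies of the longer form TATTTAT, and 6.20% of all genes had as many in their 3′UTR. These counts are not corrected for length, and the median 3′UTR had 1065 bases. Per length ZFP36 was the densest of the 3, at 7.06 ATTTA per kb against a median of 1.5 over all genes. As high a density was found in 3.69% of genes. ZFP36L1 had 4.28 per kb and ZFP36L2 2.61, and 13.3% and 32.1% of genes were as dense. A match to these letters is a description of the sequence, and binding was not measured here.

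Promoter sequence was matched in RefSeq (GRCh38.p14) for ZFP36 and ZFP36L1. The 250 bases before the start of ZFP36, chr19:39406597-39406846 on the plus strand, are shown because this gene is known to answer glucocorticoids. TATAA is in capitals and lies 30 to 26 bases before the start.
ZFP36: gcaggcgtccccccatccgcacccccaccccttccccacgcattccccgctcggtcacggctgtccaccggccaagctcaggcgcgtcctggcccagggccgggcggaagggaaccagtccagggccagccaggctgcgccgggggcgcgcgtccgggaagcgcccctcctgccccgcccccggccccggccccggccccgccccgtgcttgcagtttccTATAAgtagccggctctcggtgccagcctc
ZFP36L1 has 2 listed starts. The 250 bases before the inner one, chr14:68793417-68793666 on the minus strand, hold a cAMP response element (TGACGTCA, in capitals) 52 to 45 bases before the start.
ZFP36L1: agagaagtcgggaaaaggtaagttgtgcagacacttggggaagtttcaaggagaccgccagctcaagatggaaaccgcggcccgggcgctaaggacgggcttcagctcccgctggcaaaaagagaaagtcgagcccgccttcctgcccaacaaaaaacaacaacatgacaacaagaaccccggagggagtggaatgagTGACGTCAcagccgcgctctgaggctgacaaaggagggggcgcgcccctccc
Windows of 250 bases before to 50 after each start were searched on both strands. TATAA was found in 20.4% of 35116 promoters and TGACGTCA in 1.85%. A match to GCGNGGGCG, the site of the EGR factors, began 6 bases after the inner start of ZFP36L1 and was found in 9.43% of promoters. The GR hexamer AGAACA (14.8% of promoters), a relaxed GR palindrome (0.390%), the AP-1 site TGANTCA (7.71%) and the CArG box (1.29%) were not matched in the windows of either gene, which says only that these letters are not there.

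Total counts per library ran from 8106036 to 15820806. NR3C1, which encodes GR and whose row takes reads of both the transgene and the endogenous gene, checked the lines: at 0 h it stood at 688 ± 192 CPM in wt, 2630 ± 286 in SoF and 3317 ± 162 in Ctrl (SD, n = 2). CPM are read counts scaled to a common library total. NR3C1 was higher than in wt by 1.94 log2 units in SoF (adjusted p = 4.57e-05) and by 2.27 in Ctrl (adjusted p = 4.67e-06), where 0.347% and 0.309% of genes were called, so the lines differed in NR3C1 RNA at 0 h, and the part of this in any difference between lines was not tested. Receptor protein was not measured by these libraries, and the sorted pools had been picked for like amounts of GR in the nucleus by immunofluorescence. Averaged over lines, NR3C1 rose by 1.07 ± 0.12 at 1 h (adjusted p = 1.24e-05) and fell by 1.06 ± 0.12 at 3 h (adjusted p = 4.25e-07). Of 8 markers of a mesenchymal bone tumour line, 7 had a median of at least 1 CPM, COL1A2 had a median of 0.209 CPM, and their summed level was 1859 to 4454 CPM. Summed markers of epithelium, blood, endothelium, liver and glia reached at most 10.9, 2.28, 1.00, 0.104 and 1.31 CPM. In bulk libraries, fewer cells with a message and less of it per cell cannot be told apart.

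Levels can be compared between the 3 genes only per exon length. That length counts the bases of all annotated exons once: 1976 for ZFP36, 6466 for ZFP36L1 and 3693 for ZFP36L2. Scaled in this way, ZFP36L1 was highest in 24 of 24 libraries. Its mean over all libraries was 280 CPM per kb against 106 for ZFP36 and 101 for ZFP36L2. ZFP36 and ZFP36L2 did not keep an order: ZFP36L2 was the higher in 11 of 24 libraries. The single transcripts used for the 3′UTR counts above have 1747, 3017 and 3693 bases. The levels and shares per kb therefore depend on the length taken, and the order of ZFP36 and ZFP36L2 may too. As a share of the family's summed level per kb, ZFP36 was 21.4% ± 2.53 at 0 h, 28.0% ± 4.18 at 1 h, 23.1% ± 5.18 at 2 h and 16.7% ± 3.89 at 3 h (SD, n = 6). The share of ZFP36L2 was 15.2% ± 2.44, 18.2% ± 2.59, 25.4% ± 2.78 and 20.8% ± 1.30 at the same times. ZFP36L1 held 63.4% ± 1.53 at 0 h, 53.8% ± 2.85 at 1 h, 51.4% ± 3.49 at 2 h and 62.5% ± 3.94 at 3 h. Thus the most abundant member took its smallest mean share of newly made family RNA at 2 h.

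**Figure D1:**
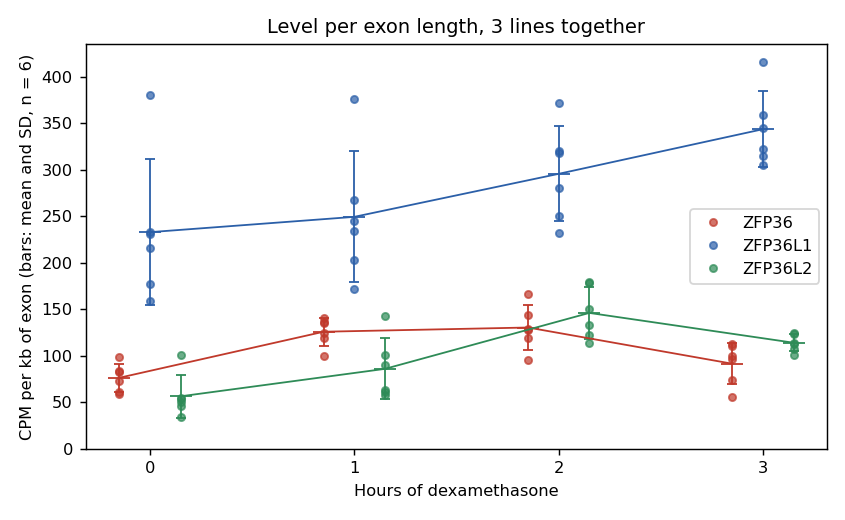
Level of each gene per exon length (CPM per kb, linear axis) against hours of dexamethasone. Each point is 1 library, and bars are the mean and SD of the 6 libraries of a time. ZFP36L1 lies above the other genes at every time, and the points of ZFP36 and ZFP36L2 overlap.

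ZFP36 was higher at 1 and 2 h and then fell. In wt the 2 libraries stood at 116 and 163 CPM at 0 h (replicates 1 and 2), 197 and 266 at 1 h, 284 and 253 at 2 h, and 191 and 197 at 3 h. In SoF they stood at 165 and 121, 246 and 234, 329 and 254, and 217 and 222 CPM at the same times. In Ctrl they stood at 196 and 143, 278 and 269, 189 and 236, and 110 and 147 CPM. All 6 libraries at 1 h lay above the highest of the 6 at 0 h (196 CPM), 5 of 6 did at 2 h, and 3 of 6 did at 3 h. The highest level came at 2 h in wt and SoF and at 1 h in Ctrl, and the Ctrl libraries at 3 h overlapped those of Ctrl at 0 h.

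Averaged over the 3 lines, ZFP36 was 0.72 ± 0.12 log2 units higher at 1 h than at 0 h (SE; 1.65-fold, adjusted p = 0.00106) and 0.76 ± 0.12 higher at 2 h (1.70-fold, adjusted p = 3.91e-05). It was among the 1.28% of tested genes called at 1 h, with 0.731% higher and 0.55% lower, and the 28.8% called at 2 h. From 2 h to 3 h it fell by 0.54 ± 0.12 (adjusted p = 0.0036, with 10.0% of genes called), and at 3 h the difference from 0 h was 0.23 ± 0.12 (adjusted p = 0.123). That last value passed the threshold when wt 0 h replicate 2, SoF 0 h replicate 1 or Ctrl 0 h replicate 1 was left out, at 0.32 to 0.33. The step from 1 h to 2 h was 0.04 ± 0.12 (adjusted p = 0.783), so no difference between the times was found there.

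Within single lines the power was lower. At 1 h none of the 3 genes was called in any line, where 0.156% of genes were called in wt, 0.165% in SoF and 0.0465% in Ctrl. ZFP36 nonetheless had much the same estimate in each, 0.73 ± 0.20 in wt, 0.75 ± 0.20 in SoF and 0.69 ± 0.20 in Ctrl (adjusted p = 0.212, 0.237 and 1.00 in edgeR). At an unadjusted p under 0.05, 2 of the 3 genes passed at 1 h in each line (ZFP36 and ZFP36L2). Of 23651 genes, 2602 passed that threshold in wt, 1645 in SoF and 423 in Ctrl. DESeq2 called 0 of 3 in each line, and 108, 79 and 15 of all genes. At 2 h ZFP36 rose in wt by 0.94 ± 0.20 (adjusted p = 0.00855, 4.60% of genes called) and in SoF by 1.03 ± 0.20 (adjusted p = 0.00309, 5.68% called). In Ctrl the value was 0.33 ± 0.20 (adjusted p = 0.349, 7.95% called).

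At 3 h ZFP36 was called in SoF alone of the lines, at 0.62 ± 0.20 (adjusted p = 0.0348, 19.3% of genes called). The value was 0.47 ± 0.20 in wt (adjusted p = 0.145, 10.7% called) and -0.40 ± 0.20 in Ctrl (adjusted p = 0.195, 14.2% called). The calls in single lines rested on few libraries. That of wt at 2 h was lost without wt 0 h replicate 1 (0.68) or either wt 2 h library (0.84 and 1.00), that of SoF at 2 h without SoF 0 h replicate 2 (0.81) or SoF 2 h replicate 1 (0.83), and that of SoF at 3 h without SoF 0 h replicate 2 (0.41) or either SoF 3 h library (0.63 and 0.60).

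**Figure D2:**
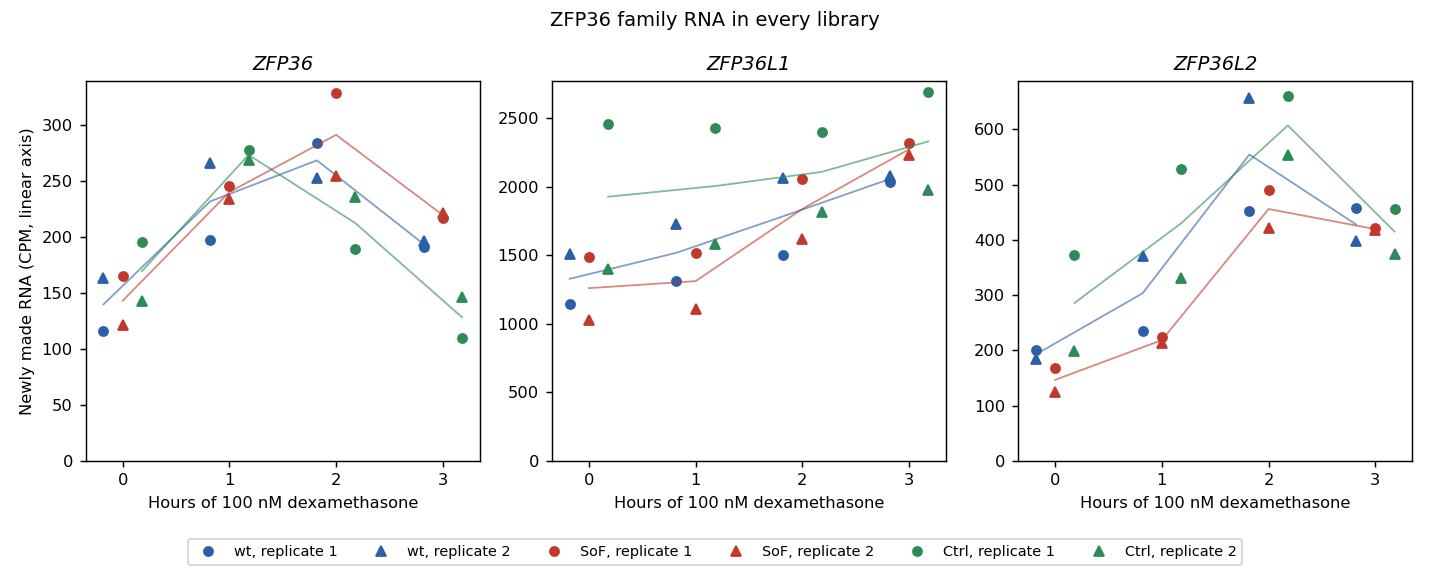
Level of each gene (CPM, linear axes that start at 0 and differ between panels) against hours of dexamethasone, shifted sideways by line. Each symbol is 1 library, circles for replicate 1 and triangles for replicate 2, and lines join the means of the 2 libraries. ZFP36 was highest at 1 or 2 h and ZFP36L2 at 2 h in each line. In ZFP36L1 and ZFP36L2, replicate 1 of Ctrl lies above replicate 2 at every time.

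ZFP36L2, the member with the lowest mean per length at 0 h, had the largest estimated changes of the 3 at 2 h and 3 h. In wt it stood at 201 and 184 CPM at 0 h, 235 and 371 at 1 h, 453 and 657 at 2 h, and 458 and 397 at 3 h. In SoF it stood at 168 and 125, 224 and 213, 491 and 421, and 422 and 417 CPM. In Ctrl it stood at 372 and 199, 528 and 332, 661 and 554, and 456 and 374 CPM. All 6 libraries at 2 h and all 6 at 3 h lay above the highest at 0 h (372 CPM, Ctrl replicate 1), and 1 of 6 did at 1 h. The mean was highest at 2 h in every line.

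Averaged over lines, ZFP36L2 was 0.61 ± 0.15 higher at 1 h (1.52-fold, adjusted p = 0.0437), 1.42 ± 0.15 higher at 2 h (2.67-fold, adjusted p = 4.30e-07) and 1.07 ± 0.15 higher at 3 h (2.10-fold, adjusted p = 7.45e-06, with 40.3% of genes called). The call at 1 h was lost in 8 of 12 fits that each left out 1 library (0.47 to 0.62 in those), and those libraries were both wt 0 h libraries, wt 1 h replicate 2, SoF 0 h replicate 2, both SoF 1 h libraries, Ctrl 0 h replicate 2 and Ctrl 1 h replicate 1. The step from 1 h to 2 h was a rise of 0.81 ± 0.15 (adjusted p = 0.000178, with 44.9% of genes called). From 2 h to 3 h the value was -0.35 ± 0.15 (adjusted p = 0.159).

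By line, ZFP36L2 rose at 2 h by 1.52 ± 0.26 in wt (adjusted p = 0.00153), 1.64 ± 0.26 in SoF (adjusted p = 0.000444) and 1.09 ± 0.26 in Ctrl (adjusted p = 0.0112). At 3 h it rose by 1.15 ± 0.26 in wt (adjusted p = 0.00563) and 1.52 ± 0.26 in SoF (adjusted p = 0.00034), and the value in Ctrl was 0.54 ± 0.26 (adjusted p = 0.174). The Ctrl values depended on which 0 h library was kept, and these stood 1.86-fold apart. Replicate 1 of ZFP36L2 was the higher at 4 of 4 times in Ctrl, by 1.19 to 1.86-fold. It was also the higher at 4 of 4 times in SoF, by 1.01 to 1.35-fold, and at 2 of 4 in wt. Without Ctrl 0 h replicate 1 the 3 h value in Ctrl was 1.07 and called, and without Ctrl 0 h replicate 2 it was 0.16 and the call at 2 h was lost (0.69). The 2 h call in Ctrl was also lost without Ctrl 2 h replicate 1 (0.96). In wt the call at 2 h was lost without wt 0 h replicate 2 (1.46) or wt 2 h replicate 2 (1.21), and that at 3 h without wt 0 h replicate 2 (1.11).

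ZFP36L1 had the smallest estimates at 1 and 2 h, and in the fit without a replicate term it passed the test only at 3 h. In wt it stood at 1147 and 1509 CPM at 0 h, 1310 and 1726 at 1 h, 1502 and 2067 at 2 h, and 2033 and 2082 at 3 h. In SoF it stood at 1491 and 1030, 1514 and 1108, 2058 and 1619, and 2319 and 2230 CPM. In Ctrl it stood at 2459 and 1397, 2431 and 1580, 2402 and 1816, and 2689 and 1974 CPM. The libraries at 3 h lay above those at 0 h of the same line in wt and SoF, and the Ctrl libraries overlapped at every time. The 2 libraries of a line kept their order through the course: replicate 1 was the higher at 4 of 4 times in SoF and in Ctrl, by 1.04 to 1.45 and 1.32 to 1.76-fold, and replicate 2 was at 4 of 4 times in wt, by 1.02 to 1.38-fold.

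Averaged over lines, ZFP36L1 differed from 0 h by 0.10 ± 0.16 at 1 h (adjusted p = 0.784), 0.37 ± 0.16 at 2 h (adjusted p = 0.0805) and 0.59 ± 0.16 at 3 h (1.5-fold, adjusted p = 0.0046), and in this fit, which has no replicate term, only the last passed. The value at 2 h passed without SoF 0 h replicate 1 (0.47) or Ctrl 0 h replicate 1 (0.51). The steps from 1 h to 2 h (0.26 ± 0.16, adjusted p = 0.169) and from 2 h to 3 h (0.22 ± 0.16, adjusted p = 0.447) were not called. At 3 h it rose in SoF by 0.85 ± 0.27 (adjusted p = 0.0299), and the values were 0.63 ± 0.27 in wt (adjusted p = 0.145) and 0.27 ± 0.27 in Ctrl (adjusted p = 0.54). The SoF call was lost without SoF 0 h replicate 2 (0.61) or either SoF 3 h library (0.82 and 0.88).

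**Figure D3:**
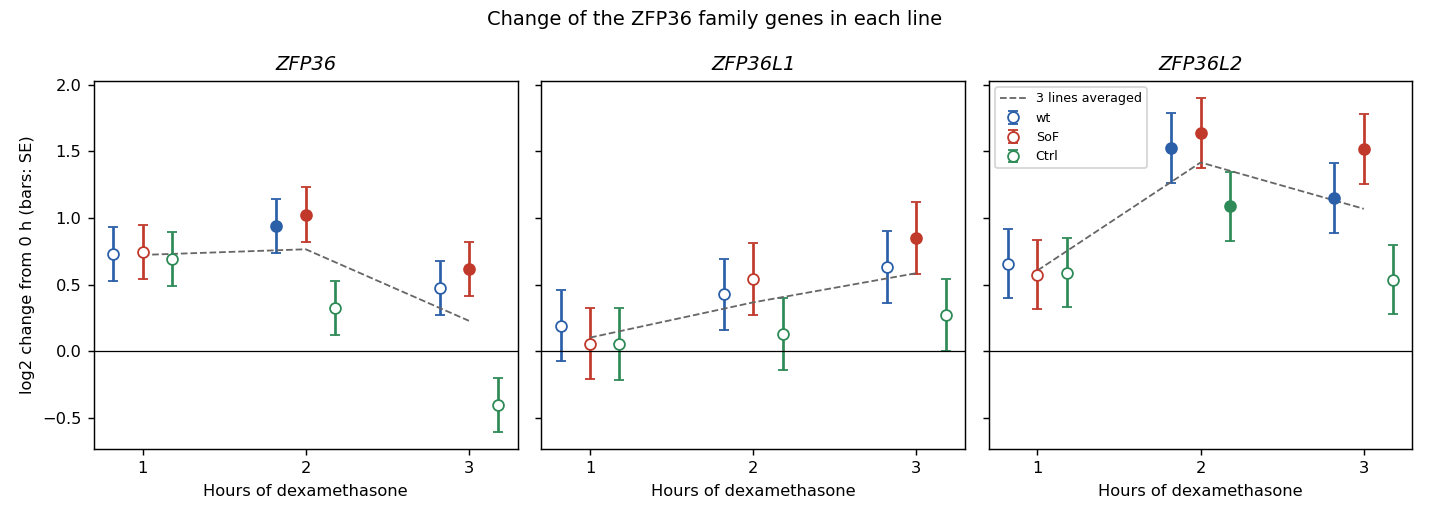
Change from 0 h of the same line (log2, with SE bars) at 1, 2 and 3 h. Filled circles passed an adjusted p of 0.05, open circles did not, and the dashed line is the average of the 3 lines. The averages peak at 2 h for ZFP36 (0.76) and ZFP36L2 (1.42) and at 3 h for ZFP36L1 (0.59), and the only value below 0 is that of ZFP36 in Ctrl at 3 h.

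The design asks whether the mutants change the response, and none of the 3 genes showed a called difference between lines. At 3 h the response of ZFP36 was larger in SoF than in Ctrl by 1.02 ± 0.29 log2 units (unadjusted p = 0.00169, adjusted p = 0.951), that of ZFP36L2 by 0.98 ± 0.37 (adjusted p = 1.00) and that of ZFP36L1 by 0.58 ± 0.38 (adjusted p = 1.00). Of all genes tested, 0.0127% were called in this contrast. Against wt, the SoF response differed by 0.15 ± 0.28 for ZFP36, 0.22 ± 0.38 for ZFP36L1 and 0.37 ± 0.36 for ZFP36L2, and the Ctrl response by -0.88 ± 0.29, -0.36 ± 0.38 and -0.61 ± 0.36. No gene of the whole table was called in either contrast with wt by edgeR, although 558 and 845 genes had an unadjusted p under 0.05 and DESeq2 called 0 and 1. A test of any difference in the course over 1, 2 and 3 h gave unadjusted p = 0.0125 for ZFP36, 0.706 for ZFP36L1 and 0.152 for ZFP36L2, with adjusted p of 1.00 for each. It called 0 of 23651 genes in edgeR (256 at an unadjusted p under 0.05) and 7 in DESeq2, none of them in the family.

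The levels behind these differences are as follows. For ZFP36 the lines overlapped at 0 h, at 140 ± 33.3 CPM in wt, 143 ± 31.1 in SoF and 169 ± 37.3 in Ctrl (SD, n = 2). At 3 h they stood at 194 ± 4.08, 220 ± 3.20 and 128 ± 26.0 CPM, and both Ctrl libraries lay below the 4 others. For ZFP36L2 the means of the lines lay between 415 and 428 CPM at 3 h, and at 0 h they stood at 193 ± 11.7 in wt, 147 ± 30.6 in SoF and 286 ± 122 in Ctrl, where replicate 1 (372 CPM) lay above the wt libraries and replicate 2 (199 CPM) between them. At 0 h, SoF against Ctrl gave -0.96 ± 0.26 for ZFP36L2 (unadjusted p = 0.00126, adjusted p = 0.159, with 0.347% of genes called).

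With time ignored and 8 libraries a line, no member was called either. The study's methods set each mutant against wt in this way, and SoF against Ctrl is an addition. ZFP36 ran from 116 to 284 CPM in wt (median 197), from 121 to 329 in SoF (median 228) and from 110 to 278 in Ctrl (median 192). ZFP36L1 had medians of 1618, 1567 and 2188 CPM in wt, SoF and Ctrl, and ZFP36L2 of 384, 321 and 415. The ranges of the 3 lines overlapped for each gene. SoF differed from Ctrl by 0.19 ± 0.20 for ZFP36, -0.32 ± 0.17 for ZFP36L1 and -0.48 ± 0.29 for ZFP36L2 (adjusted p = 0.735, 0.421 and 0.495, with 3.61% of genes called). SoF differed from wt by 0.11 ± 0.20, 0.01 ± 0.17 and -0.24 ± 0.29 (adjusted p = 0.777, 0.99 and 0.631, 8.02% called), and Ctrl from wt by -0.09 ± 0.20, 0.33 ± 0.17 and 0.24 ± 0.29 (adjusted p = 0.864, 0.311 and 0.706, 4.77% called). In edgeR 0 of 3 members had an unadjusted p under 0.05 in each of these contrasts, and DESeq2 called 0 of 3. Of 21122 genes DESeq2 called 1064 for SoF against Ctrl, 2388 for SoF against wt and 1477 for Ctrl against wt. How many of all genes passed the unadjusted threshold was not counted. The fit with time ignored counts changes over time as spread between libraries. When time was added as a term, the value of ZFP36L2 in SoF against Ctrl was -0.58 (adjusted p = 0.00564). That fit called 2814 of 21122 genes in this contrast, against 763 with time ignored.

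The genes most like each member were taken as the 5 with the highest Pearson r of log2 CPM over the 24 libraries, among 19654 genes with a mean of at least 1 CPM. These libraries share times and lines, so r has no test. It takes in differences between times, lines and replicates together, and does not describe the course over time alone. For ZFP36 they were RHOB (r = 0.83), a small GTPase, TXNIP (0.80), which binds thioredoxin, the lncRNA ENSG00000276900 (0.79), PER1 (0.79), a repressor of the circadian clock, and RAB11FIP1 (0.76), which works in endosome recycling. RHOB had means over 6 libraries of 383, 674, 560 and 510 CPM at 0, 1, 2 and 3 h, and PER1 of 104, 279, 376 and 223 CPM. For ZFP36L1 they were LOXL1-AS1 (0.93), FOSL2 (0.90), an AP-1 subunit, CAV1 (0.89), the coat protein of caveolae, F3 (0.87), which is tissue factor, and the pseudogene NUS1P1 (0.87), whose reads may be shared with its parent gene. FOSL2 stood at 863, 958, 1291 and 1441 CPM at 0, 1, 2 and 3 h.

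For ZFP36L2 the most alike were GTF3C4 (0.92), a subunit of the RNA polymerase III factor TFIIIC, the transporter SLC43A3 (0.91), AHNAK (0.91), a very large scaffold protein, STOML1 (0.90) and PROSER2 (0.90). AHNAK stood at 2009, 2246, 3532 and 3007 CPM in turn. Each of these 5 was highest at 2 h, except PROSER2, which stood at 29.3 CPM at 2 h and 31.8 at 3 h. Between the members themselves r was 0.80 for ZFP36L1 with ZFP36L2, 0.50 for ZFP36 with ZFP36L2 and 0.20 for ZFP36 with ZFP36L1.

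ZFP36 is also known as an immediate-early gene, induced within minutes by serum and stress, and the 20 listed genes of that class were lower after dexamethasone. All 20 fell by 3 h in the average over lines (19.3% of tested genes were called lower and 20.9% higher), with a median of -1.92 log2 units against -0.03 over all genes. EGR1, a zinc-finger factor, dropped between 0 h and 3 h from 4735 ± 951 to 179 ± 38.3 CPM (SD, n = 6), EGR2 fell by 5.42 ± 0.28, and ATF3, a stress factor, fell by 3.57 ± 0.16. At 1 h 3 of 20 had fallen in edgeR (11 at an unadjusted p under 0.05 and 5 in DESeq2). In the other direction 0 had risen (1 at an unadjusted p under 0.05 and 1 in DESeq2). Of all genes, 3332 had an unadjusted p under 0.05 at 1 h and DESeq2 called 460, in either direction. At 2 h 17 had fallen and 1, KLF10, had risen. Over all genes 0.55% were called lower at 1 h and 12.6% at 2 h.

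Most of the 10 glucocorticoid-induced reference genes rose. Of the 10, 6 rose by 1 h, 7 by 2 h and 8 by 3 h, where 0.731%, 16.2% and 20.9% of all genes were called higher, and the median was 1.29 at the last time. ERRFI1 was at -0.09 at 3 h (adjusted p = 0.646). ZBTB16, a transcription factor, rose by 6.03 ± 0.24, FKBP5, a GR co-chaperone, by 3.06 ± 0.13 and KLF9 by 1.77 ± 0.15. The remaining gene, DUSP1, a phosphatase that switches off p38 and stands in both lists, fell by 0.78 ± 0.12 at 3 h and went through 1129, 1565, 1156 and 680 CPM from 0 to 3 h. Of the 8 that rose by 3 h, PER1 (1.41, 1.84 and 1.09 at 1, 2 and 3 h) and KLF9 (1.16, 2.06 and 1.77) had lower estimates at 3 h than at 2 h, and the other 6 had higher ones.

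**Figure D4:**
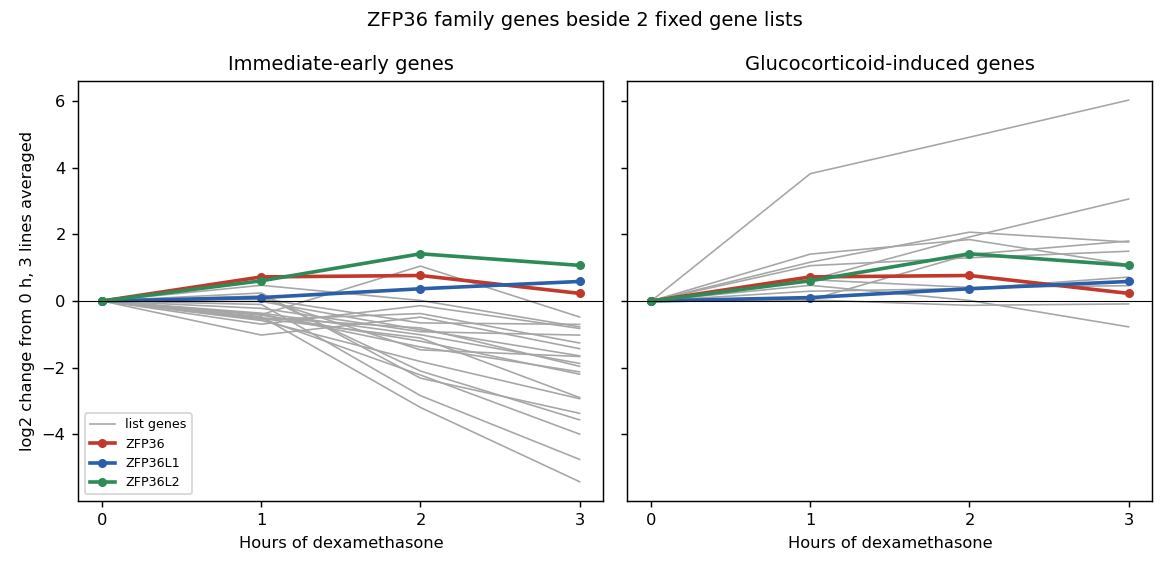
Change from 0 h averaged over the 3 lines (log2) against hours of dexamethasone, for ZFP36, ZFP36L1 and ZFP36L2 (thick lines with points) and for each gene of 2 lists (thin grey lines): 20 immediate-early genes on the left and 10 glucocorticoid-induced genes on the right. All 20 immediate-early genes end below 0, and the 3 members end between 0.23 and 1.07.

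Genes of the decay machinery that the family recruits were called in both directions. Of 19 deadenylase genes, 3 rose and 3 fell at 3 h (median 0.01). TOB2 rose by 0.70 ± 0.10, TNKS1BP1 by 0.65 ± 0.10 and CNOT6L, a catalytic subunit of CCR4-NOT, by 0.59 ± 0.12. The 3 that fell were BTG2 (221 ± 49.1 CPM at 0 h, 99.1 ± 13.3 at 3 h), BTG1 and TOB1. Of 11 decapping and 5′ to 3′ decay genes, 2 rose (DCP1B by 0.39 ± 0.09 and EDC4 by 0.32 ± 0.11) and 2 fell (XRN1, the 5′ to 3′ exonuclease, by 0.30 ± 0.10, and PATL1 by 0.24 ± 0.08). Of 14 exosome genes, 6 rose, led by EXOSC7 (0.52 ± 0.10), EXOSC2 (0.28 ± 0.08) and EXOSC5 (0.45 ± 0.13), and 3 fell, EXOSC9 (-0.41 ± 0.08), EXOSC8 (-0.26 ± 0.09) and DIS3 (-0.22 ± 0.09). These shares stand beside the 20.9% of all tested genes called higher and the 19.3% called lower.

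Other proteins that read AU-rich or stem-loop elements were also called in both directions, with 5 of 16 higher and 3 lower at 3 h (20.9% and 19.3% of all genes). ELAVL1, which stabilises AU-rich messages, rose by 0.45 ± 0.07, the endonuclease relative ZC3H12C by 0.68 ± 0.11 and HNRNPAB by 0.37 ± 0.11. IGF2BP3 fell by 1.5 ± 0.24 from a level of 3.97 ± 0.84 CPM, TIA1 by 0.33 ± 0.10 and HNRNPD, or AUF1, by 0.24 ± 0.09. Of 17 genes of the p38-MK2 pathway and its phosphatases and 14-3-3 partners, 5 rose and 4 fell. YWHAH, a 14-3-3 protein, rose by 0.51 ± 0.09, MAPKAPK3 by 0.62 ± 0.13 and the p38 kinase MAPK11 by 0.69 ± 0.18. Both kinases listed that activate p38 fell, MAP2K3 by 1.06 ± 0.12 (160 ± 21 CPM at 0 h, 77.4 ± 11.3 at 3 h) and MAP2K6 by 1.91 ± 0.41 from 4.43 ± 1.84 CPM, and DUSP1 fell as given above.

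Messages known to carry AU-rich elements and to be bound by the family were called in both directions, at 3 h in shares near those of all genes. Of 25 listed, 22 passed the filter (IL1B, CXCL1 and CXCL2 did not), and at 3 h 5 were higher and 6 lower, beside 20.9% and 19.3% of all genes, with a median of -0.07. BIRC3, an inhibitor of apoptosis, went from 48.0 ± 13.0 to 443 ± 197 CPM, the cytokine LIF rose by 1.1 ± 0.17 and the cyclin CCND1 by 0.64 ± 0.10. PTGS2, the inducible cyclooxygenase, went from 71.1 ± 17.0 to 8.46 ± 2.7 CPM, FOS from 400 ± 95.4 to 39.4 ± 9.54 and MYC fell by 1.22 ± 0.11. At 2 h 10 of 22 were higher and 4 lower (16.2% and 12.6% of all genes), and at 1 h 1 was higher and 4 were lower (0.731% and 0.55%). TNF, the best known target of ZFP36, had 1.14 at 2 h (adjusted p = 0.0097) and -0.07 at 3 h (adjusted p = 0.885). FOS, IER3 and DUSP1 stand in this list and in the immediate-early list. 4sU-seq over 1 h reads synthesis together with the decay that falls in that hour, and the stability of these messages was not measured.

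ZFP36 (ENSG00000128016.7) lies at chr19:39406847-39409412 (plus strand, hg38), ZFP36L1 (ENSG00000185650.10) at chr14:68787660-68796253 (minus) and ZFP36L2 (ENSG00000152518.8) at chr2:43222402-43226606 (minus), each with 2 exons in the transcript used. That reads were counted by strand is known from the table's title alone. The antisense lncRNA ENSG00000287387 overlaps the 3′ end of ZFP36L2 and had 2.24 to 4.85 CPM, and ENSG00000289626 lies inside the span of ZFP36L1 on the same strand with 18.7 to 41.7 CPM. At 3 h ENSG00000289626 fell by 0.46 (adjusted p = 0.00973) where ZFP36L1 rose. Of the genes next to ZFP36, PLEKHG2 downstream differed from 0 h by -0.20 at 1 h (adjusted p = 0.347) and rose at 2 h by 0.65 (adjusted p = 2.62e-05) and at 3 h by 0.54, and MED29 upstream was at -0.03 at 2 h (adjusted p = 0.813). Beside ZFP36L2, LINC01126 rose by 0.74 at 2 h (adjusted p = 0.000846) and had 4.01 to 11.9 CPM over all libraries, and THADA was at -0.10 (adjusted p = 0.432).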

How the data were processed

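The deposited table holds raw counts per gene, which the authors made by tagging molecular identifiers with UMI-tools 1.1.2, trimming with Trim Galore 0.6.6, aligning to hg38 with STAR 2.7.3a, removing duplicate molecules and counting exon reads with featureCounts on Gencode. All 24 libraries were used, grouped by line and time from the labels. Nothing says that the 2 libraries of a group came from separate cultures, so p-values measure the spread between these libraries, which may be technical. The study's methods state that replicates of a sample were biotinylated and pulled down as pairs. If the 2 libraries of a group shared a pulldown, variation between pulldowns is not in that spread. The SE and p-values of differences between times or lines may then be too small. Symbols came from GENCODE release 44 (61369 of 61533 identifiers matched). Differential expression was tested with the quasi-likelihood F test of edgeR 4.0.16 (R 4.3.3, limma 3.58.1) in 1 fit over 12 groups, with TMM scaling and filterByExpr (minimum count 10, minimum total 15). P-values were adjusted by Benjamini-Hochberg over all tested genes, with calls made below 0.05. SE is the absolute log2 fold change over the square root of F. Averages weight the 3 lines equally. A second fit grouped 8 libraries by line, kept 21122 genes and ignored time. CPM use TMM factors, and log2 CPM has a prior count of 2. DESeq2 1.42.0, other scaling, no filter, a replicate term, fewer lines and leaving out each library were alternatives. Chi-square per degree of freedom between replicates was 5.61 to 21.0, so no pair was a repeated library and replicate spread, not counting, limits precision.

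The members and gene lists were chosen with earlier results of these data known. Genes named are the members, from each list at most 3 called at 3 h in each direction with the smallest p in the average over lines, the 5 genes most like each member, NR3C1, and genes next to a member. ERRFI1, KLF10, PER1 and TNF outside that rule were named after their values were seen.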

Additional observations from a re-analysis of the deposited data

How the results depend on the processing

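Over 63 values of the 3 genes, DESeq2, its size factors within edgeR, and (for the 36 values where it applies) a fit of the compared lines alone changed no call and no direction. A term for the replicate number in the fit over 12 groups (a replicate block) changed none of 54. Same-numbered libraries deviated together in some pairs of groups, such as the 3 pairs at 0 h (r from 0.39 to 0.57), and not in most. Over all 66 pairs r ran from -0.22 to 0.57 (median 0.04, above 0.1 in 21). Between times of the same line r ran from 0.04 to 0.43 in SoF, -0.07 to 0.30 in wt and -0.18 to 0.21 in Ctrl. The numbers were not taken to pair the libraries, and pairing within a line was not tested. A replicate block for each line, added after seeing the data, brought 5 values past the threshold: ZFP36L1 in wt at 3 h (0.65), in SoF at 2 h (0.56), averaged at 2 h (0.38) and from 1 h to 2 h (0.27), and ZFP36L2 in Ctrl at 3 h (0.59). A replicate block with an additive time term gave -0.57 for ZFP36L2 in SoF against Ctrl (called) and turned ZFP36L1 in SoF against wt to -0.0356. The time term alone gave -0.58 (called) and -0.0138. For SoF against Ctrl these fits called 3089 and 2814 of 21122 genes.

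Without the filter on low counts the same fit covered 48707 genes, and 13 values passed: ZFP36L2 in wt at 1 h (0.64), ZFP36 in wt and SoF at 1 h (0.71 and 0.68), ZFP36L1 in wt at 3 h (0.63) and SoF at 2 h (0.54), ZFP36L2 in Ctrl at 3 h (0.53), ZFP36L1 averaged at 2 h (0.34) and from 1 h to 2 h (0.28), ZFP36L2 from 2 h to 3 h (-0.32), the larger 3 h response in SoF than Ctrl of ZFP36 (1.04) and ZFP36L2 (1.00), and the test of the course between lines (adjusted p = 0.00761 for ZFP36 and 0.0276 for ZFP36L2). The number of all genes called in that last test went from 0 to 101, and for SoF minus Ctrl at 3 h from 3 to 52. The cause was not tested. ZFP36L1 turned to -0.0081 in SoF at 1 h and to -0.0233 for SoF against wt with time ignored. The decapping and exosome genes that fell at 3 h became 1 and 1. At 1 h the immediate-early genes that fell went from 3 to 11 and the AU-rich messages from 4 to 10. Those that rose went from 0 to 1 and from 1 to 2. Of 48707 genes, 1035 were called at 1 h without the filter. Taken at 0 h alone, differences between lines that had not been called turned to -0.24 (ZFP36, SoF against Ctrl), 0.28 (ZFP36, Ctrl against wt) and -0.0757 (ZFP36L1, SoF against wt).

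Leaving out single libraries, with the lone library assumed to vary like the other groups, moved ZFP36 to 0.68 to 1.21 in wt at 2 h, 0.81 to 1.27 in SoF at 2 h, 0.41 to 0.87 in SoF at 3 h, 0.15 to 0.33 averaged at 3 h, -0.0206 to 0.12 from 1 h to 2 h and -0.13 to 0.39 for the 3 h response of SoF minus wt. ZFP36L2 ranged over 1.21 to 1.75 and 1.05 to 1.26 in wt at 2 and 3 h, 0.69 to 1.60 and 0.16 to 1.07 in Ctrl at 2 and 3 h, and 0.47 to 0.77 averaged at 1 h. ZFP36L1 ranged over -0.0201 to 0.42 in wt at 1 h, -0.21 to 0.35 and 0.61 to 1.15 in SoF at 1 and 3 h, -0.30 to 0.52, -0.24 to 0.59 and -0.0804 to 0.75 in Ctrl at 1, 2 and 3 h, -0.0282 to 0.24 and 0.24 to 0.51 averaged at 1 and 2 h, and -0.028 to 0.51 and -0.72 to 0.12 for the 3 h response of SoF and of Ctrl minus wt. With time ignored and 1 replicate number left out, SoF against wt ran from -0.30 to 0.31 for ZFP36L1 and -0.0731 to 0.28 for ZFP36, and Ctrl against wt from -0.12 to 0.74 for ZFP36L1 and -0.13 to 0.59 for ZFP36L2. With 2 libraries a group, calls in single lines are the least secure values, and the averages over lines that were called at 2 h or 3 h kept their calls in every such fit.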
